A study of Mus musculus with 20 samples.

Results

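The smooth muscle contractile genes are a set of 10 genes that encode the contractile apparatus of smooth muscle and its regulators: Acta2, Actg2, Myh11, Cnn1, Tagln, Des, Smtn, Lmod1, Mylk and Myocd. They were followed in 20 mouse whole tracheas, and every non-control probe of the array that carried 1 of these names was taken, which gave 18 of 41174 probes, for 10 of the 27962 gene names on the array. All 10 genes were represented among the 16 of these probes that were bright enough to be tested. The other two, 1 for Acta2 and 1 for Mylk, were well above background on 4 and 3 of the 20 arrays and were not tested.

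The tracheas formed 4 groups of 5, each from a separate mouse. Uninjured wild-type (C57/Bl6) and uninjured Myd88 KO (here Myd88KO) tracheas were compared with tracheas of both genotypes taken 3 days after 2% polidocanol, a detergent that strips the airway epithelium. Myd88 encodes an adaptor protein of the Toll-like receptor and interleukin-1 receptor pathways, and the deletion is present in all cells of the knockout mice. The Myd88KO mice had been backcrossed to C57/Bl6JOlaHsd for a limited number of generations and were bred as knockouts with knockouts. The wild-type C57/Bl6JOlaHsd mice came from a colony of their own. Genotype therefore cannot be told apart from colony, or from any strain background left after the backcross. The labels give an age of 4 months and no sex for single samples, whereas the study's methods give a range of ages that starts there and both sexes. Each sample was hybridized with 1 dye to 1 Agilent whole mouse genome array, and a level below is the log2 intensity of a probe after subtraction of the array's own 75th percentile.

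Smooth muscle in the trachea lies mainly in the trachealis, the band that joins the open ends of the cartilage rings, and in the walls of blood vessels. Myosin light chain kinase, encoded by Mylk, starts contraction by phosphorylating the light chains of smooth muscle myosin, which then pulls on actin filaments. Myocardin, encoded by Myocd, is a coactivator of serum response factor, which binds CArG boxes near many of the contractile genes. Smooth muscle actin and several of its partners are also made by pericytes, myofibroblasts and the myoepithelial cells of glands.

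Acta2 encodes the smooth muscle alpha-actin by which these cells are usually stained, and its promoter is shown because it was the single promoter among those of the set in which the search below found a match. The RefSeq promoter table (GRCm38.p6) held Acta2, Cnn1, Des, Smtn, Lmod1 and Mylk, and each entry was read from 250 bases before the start of the gene to 50 bases after it. A CArG box was present in 1.63% of all 32851 promoters (535) and in 0 of these 6, on either strand, since the motif reads the same on both. When 1 of its inner letters was allowed to be other than A or T, 9.98% of all promoters held it (3280), as did 1 of the 6. The stretch below gives the 160 bases before the start of Acta2 (minus strand, chr19:34255374-34255533), with both matches, CCCTATATGG and CCTTGTTTGG, in capitals. These start 84 and 34 bases before the start of the gene.
Acta2: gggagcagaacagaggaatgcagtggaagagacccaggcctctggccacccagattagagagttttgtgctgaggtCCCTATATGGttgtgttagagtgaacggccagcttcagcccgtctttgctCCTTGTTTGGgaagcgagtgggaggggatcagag

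The share of spots well above background was 57.5% to 67.8% per array, and the number of arrays limits the precision. The Myd88 probe lay at 1.94 to 2.28 in uninjured wild-type and 1.60 to 2.04 in uninjured Myd88KO tracheas, which overlap, and at 2.36 to 2.80 and 1.54 to 2.09 in the injured groups, which do not. Whether that probe lies in the deleted part of the gene is not given in the sources used here. The mean level of 9 luminal epithelium markers was 5.16 to 5.87 in the uninjured tracheas, 2.85 to 4.54 in injured wild-type tracheas, and 5.79, 3.69, 4.65, 3.31 and 5.70 in injured Myd88KO replicates 1 to 5. By this mean, replicates 1 and 5 of the injured Myd88KO group lay within the uninjured range. Comparisons of the members in that group are also given without them, by the brightest probe of each gene. Comparisons of other probes below use all arrays. Single markers can differ from the mean. Scgb1a1, a secretory protein gene of the list, lay at 4.79 in replicate 1, below the 6.98 to 8.25 of the uninjured tracheas. In replicate 5 its value was left out as an outlier spot. With injury in Myd88KO tracheas 98 of the 26063 tested probes had a limma adjusted p under 0.01. Without injured replicates 1 and 5 it was 1967, so that counts of called probes in this comparison depend on these arrays. The labels number the arrays 1 to 5 in each group, and each number was also 1 slide that held 1 array of every group. Values below are listed in the order of these numbers.

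The lead probes of the 10 genes, the brightest where a gene had several, were well above background on all 20 arrays. In whole tissue, fewer cells of a type and less RNA per cell cannot be told apart.

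**Figure D1:**
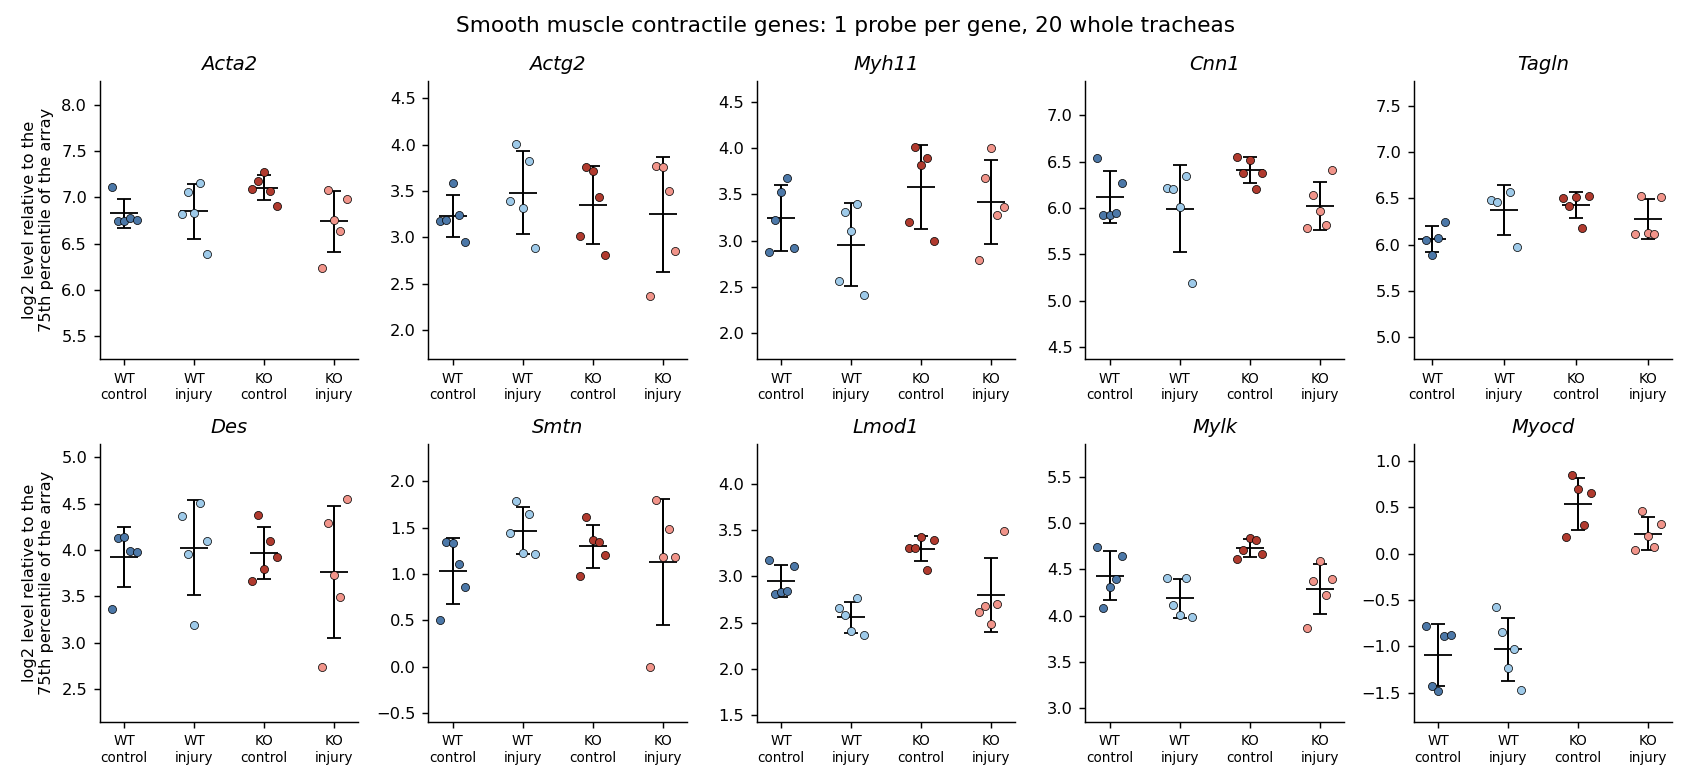
Level of the lead probe of each gene on each of the 20 arrays (y axis, log2 relative to the 75th percentile of the array, 3 log2 units in every panel), by group (x axis). Points run from replicate 1 to 5 within a group, and the horizontal line and bars give the mean and SD (n = 5, or 4 for Tagln in both wild-type groups). The lead Myocd probe separates the genotypes, with Myd88KO arrays between 0.04 and 0.85 and wild-type arrays between -1.48 and -0.58. The groups of the other genes overlap for the most part.

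The first comparison asked how Myd88KO and wild-type tracheas differed before injury. By its lead probe, Myocd was higher in every Myd88KO trachea. Its lead probe (NM_146386, chr11:65258470-65258529 as the files place it, build not stated) had levels of -0.78, -1.43, -1.48, -0.89 and -0.88 in uninjured wild-type tracheas. In uninjured Myd88KO tracheas the levels were 0.18, 0.85, 0.70, 0.31 and 0.65. The lowest Myd88KO array was thus above the highest wild-type array. The group means were -1.09 ± 0.34 and 0.54 ± 0.28 (SD, n = 5 each), a difference of 1.63 on the log2 scale (SE 0.19, 95% interval 1.24 to 2.03), or 3.10-fold (limma, adjusted p = 4.13e-05). On each of the 5 slides the Myd88KO array was the higher, by 0.95 to 2.29, and with the slide as a block the adjusted p was 0.000329. With the one-way parametric test of the study's methods on these 2 groups alone the adjusted p was 0.015, which missed the threshold of 0.01, and over 14 other settings it ran from 8.76e-06 to 0.015. Of the 16 member probes 1, this one, passed an adjusted p of 0.01, against 0.384% of all 26063 tested probes.

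The same probe was higher in injured Myd88KO tracheas. Its levels were -0.58, -0.85, -1.24, -1.03 and -1.47 in injured wild-type and 0.04, 0.46, 0.19, 0.07 and 0.32 in injured Myd88KO tracheas. Again no Myd88KO array reached down to a wild-type array, as was the case for 0.694% of all tested probes. The difference was 1.25 (SE 0.19, 95% interval 0.85 to 1.64), or 2.37-fold (limma, adjusted p = 0.0011, and 0.00446 with the slide as a block), and it was positive on 5 of 5 slides, from 0.61 to 1.79. With both injured Myd88KO replicates 1 and 5 left out it was 1.27 (adjusted p = 0.00797). In a limma fit of these 2 groups alone the adjusted p was 0.0199, which missed the threshold, and over 14 other settings it ran from 0.000752 to 0.0491. Here too the Myocd probe was the 1 member probe of 16 that passed, against 0.38% of all tested probes.

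A second Myocd probe (NM_145136, chr11:65260346-65260405) starts 1876 bases away in the positions of the files and is dimmer. It stood well above background on all but 2 of the 20 arrays, both of uninjured wild-type tracheas. Its uninjured levels were -4.16, -4.64, -4.53, -4.53 and -4.33 in wild-type and -4.18, -3.69, -3.40, -4.01 and -3.97 in Myd88KO tracheas. These groups overlapped at Myd88KO replicate 1, and the difference of 0.59 (SE 0.19, limma, adjusted p = 0.357) did not pass. In injured tracheas the difference was 0.30 (SE 0.19, limma, adjusted p = 0.546), with groups that overlapped. The probes therefore disagree in size, and the cause was not tested.

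**Figure D2:**
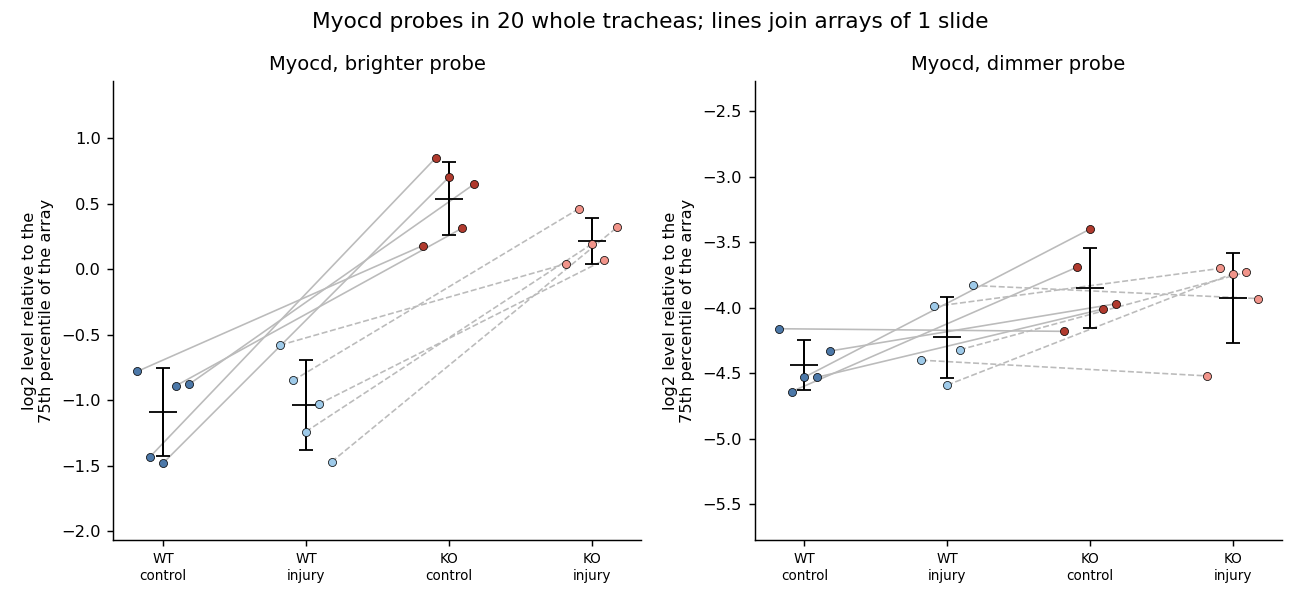
Levels of both Myocd probes on the 20 arrays (y axes, log2 relative to the 75th percentile of the array), by group (x axis), with the mean and SD of each group (n = 5). Lines join the wild-type and the Myd88KO array of 1 slide, solid for uninjured and dashed for injured tracheas. For the brighter probe every line rises, whereas for the dimmer probe the lines rise on 4 of 5 slides before and 3 of 5 after injury.

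Polidocanol injury left Myocd without a called change in either genotype. For the lead probe the difference between injured and uninjured tracheas was 0.06 in wild-type (95% interval -0.34 to 0.46) and -0.33 in Myd88KO (95% interval -0.72 to 0.07). The limma adjusted p was 0.879 and 0.361. In Myd88KO tracheas the injured array was the lower on 5 of 5 slides. Without injured replicates 1 and 5 the Myd88KO difference was -0.30. The difference between these injury responses, -0.38 (95% interval -0.95 to 0.18), did not pass the test (limma, adjusted p = 0.612).

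Myocd lies on chromosome 11, and the probes around it were examined by their positions in the files. Within 2 Mb of the lead probe, 24 probes of other transcripts were tested and 0 of them were called in either genotype comparison (limma), with a median uninjured difference of 0.12. Within 5 Mb, 1 of 234 was called before injury, a probe of Trim16, a tripartite motif gene (-6.80, adjusted p = 7.41e-11), and 2 after injury, the same Trim16 probe (-6.62) and BC025076 (-1.05). The other Trim16 probes gave -0.74 and -1.61 before injury and were not called (limma, adjusted p = 0.0504 and 0.0156), nor were they after it, at -0.72 and -1.40. These shares, 0.427% and 0.855%, compare with 0.384% and 0.38% over the array. The called Trim16 and BC025076 probes lie at -2.33 and -2.51 Mb from the lead Myocd probe. BC025076 also read lower before injury (-0.71, limma, adjusted p = 0.0286), without a call. Whether the strain background around Myocd differs between the genotypes was not tested.

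**Figure D3:**
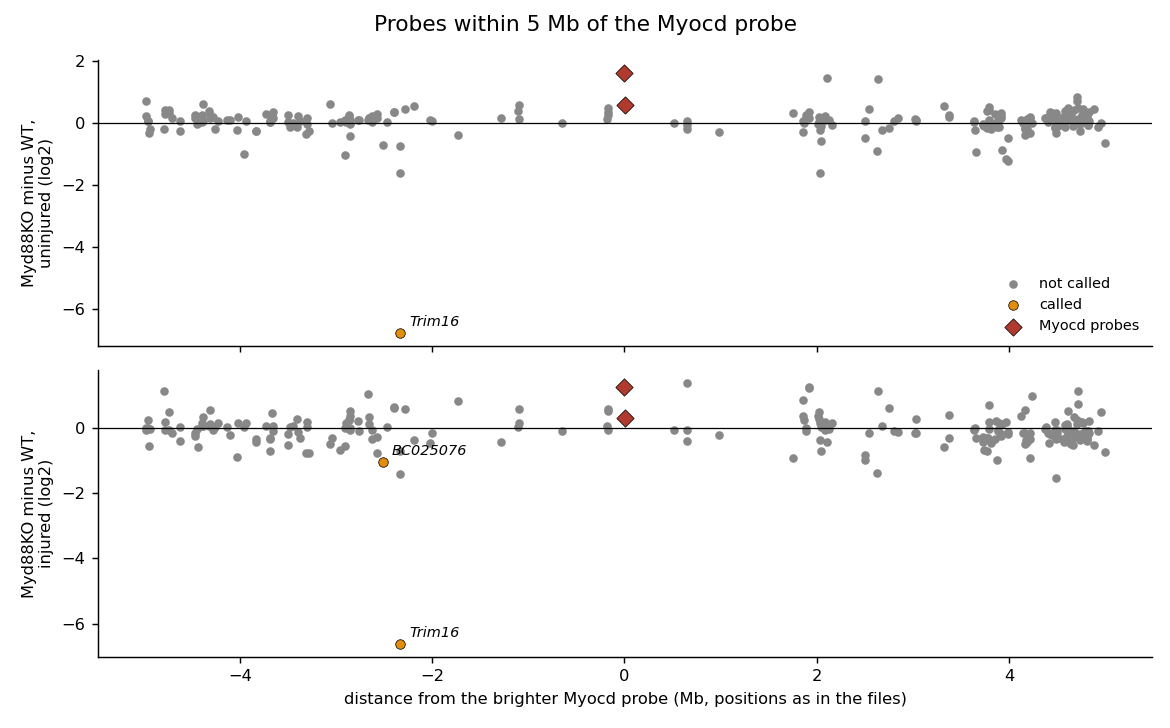
Myd88KO minus wild-type difference (y axes, log2) of tested probes within 5 Mb of the lead Myocd probe, by distance from it (x axis, Mb, positions as in the files), before (top) and after injury (bottom). Diamonds are both Myocd probes and orange points are other called probes. The 24 points within 2 Mb of Myocd are all grey, and 1 probe of Trim16 lies far below the rest in both panels.

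Heart muscle markers were read beside Myocd, because myocardin is also made in cardiac muscle. Of 8 cardiac genes, all tested with 11 probes, 2 were called higher in Myd88KO tracheas in both comparisons. Myh7, the beta cardiac myosin heavy chain that slow skeletal fibres share, lay at 1.05 ± 0.47 in wild-type and 3.27 ± 0.46 in Myd88KO tracheas before injury (SD, n = 5 each), a difference of 2.22 (SE 0.26, limma, adjusted p = 3.75e-05). Myh6, the alpha cardiac myosin heavy chain, was 1.74 higher (SE 0.26, adjusted p = 0.000757), although just 3 of 5 wild-type arrays read it well above background and a dimmer Myh6 probe missed the threshold (1.67, SE 0.33, adjusted p = 0.0150). After injury these differences were 1.97 and 1.67 (limma, adjusted p = 0.000176 and 0.00124). Tnnt2, Tnni3, Actc1 and Nppa, which mark cardiac muscle too, differed by 0.03, -0.01, 0.17 and 0.09 before injury (limma, adjusted p = 1 for each). Myl7, of atrial muscle, differed by -1.07 and Myl2, of ventricular and slow fibres, by 0.84 (limma, adjusted p = 0.651 and 0.952).

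The mean level of the 8 cardiac genes was -0.43 to -0.25 in uninjured wild-type, -0.07 to 0.37 in uninjured Myd88KO, -1.10 to -0.77 in injured wild-type and -0.78 to 0.21 in injured Myd88KO tracheas. These means include Myh7 and Myh6, and no other gene of the list was called between genotypes. All 8 were bright enough to be tested. With injury, 1 of them was called, Tnnt2, the cardiac troponin T, in wild-type tracheas (-2.56, SE 0.42, limma, adjusted p = 0.000931). Their part in the Myocd difference was not tested. For 10 skeletal muscle markers the ranges were 6.60 to 7.43 in uninjured wild-type and 6.48 to 7.64 in uninjured Myd88KO tracheas, and 0 of 16 probes were called in either genotype comparison. These markers are general or of fast fibres, and none is particular to slow fibres. They therefore do not single out the slow fibres that share Myh7.

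The other 9 genes of the set were not called in any comparison. In uninjured tracheas all 9 lead probes had a positive Myd88KO minus wild-type difference, between 0.05 for Des and 0.36 for Tagln, and 15 of the 16 member probes lay above 0. The median over the 16 was 0.28, against 0.04 over all tested probes. As the member probes are read on the same arrays, these signs are not independent of one another. At an unadjusted p of 0.05, 4 of the 16 were higher, among them both Myocd probes, Tagln and Lmod1, and 3.82% of all tested probes were. In 2 of the 16, the lead Myocd probe and the dimmer Mylk probe, the groups did not overlap and Myd88KO was the higher, as for 1.71% of all tested probes.

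Tagln encodes transgelin (SM22), an actin-binding protein of smooth muscle. Its lead probe lay at 6.05, 5.89, 6.07 and 6.24 in uninjured wild-type replicates 2 to 5, with replicate 1 left out as an outlier spot, and at 6.50, 6.42, 6.51, 6.18 and 6.52 in uninjured Myd88KO tracheas. A single Myd88KO array, replicate 4, fell within the wild-type range. The difference of 0.36 (SE 0.15, 95% interval 0.04 to 0.69) did not pass (limma, adjusted p = 0.786). The dimmer Tagln probe, read on all 20 arrays, differed by 0.16 (SE 0.22, limma, adjusted p = 1).

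Mylk encodes the kinase of the myosin light chain. Its dimmer tested probe lay at 4.08, 3.54, 4.02, 4.05 and 4.07 in uninjured wild-type and at 4.12, 4.36, 4.39, 4.44 and 4.15 in uninjured Myd88KO tracheas. No Myd88KO array lay below a wild-type array, although replicates 1 differed by only 0.04. The difference was 0.34 (SE 0.17, 95% interval -0.02 to 0.70, limma, adjusted p = 0.928), and that of the lead probe was 0.30 (SE 0.15, adjusted p = 0.945) with groups that overlapped.

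**Figure D4:**
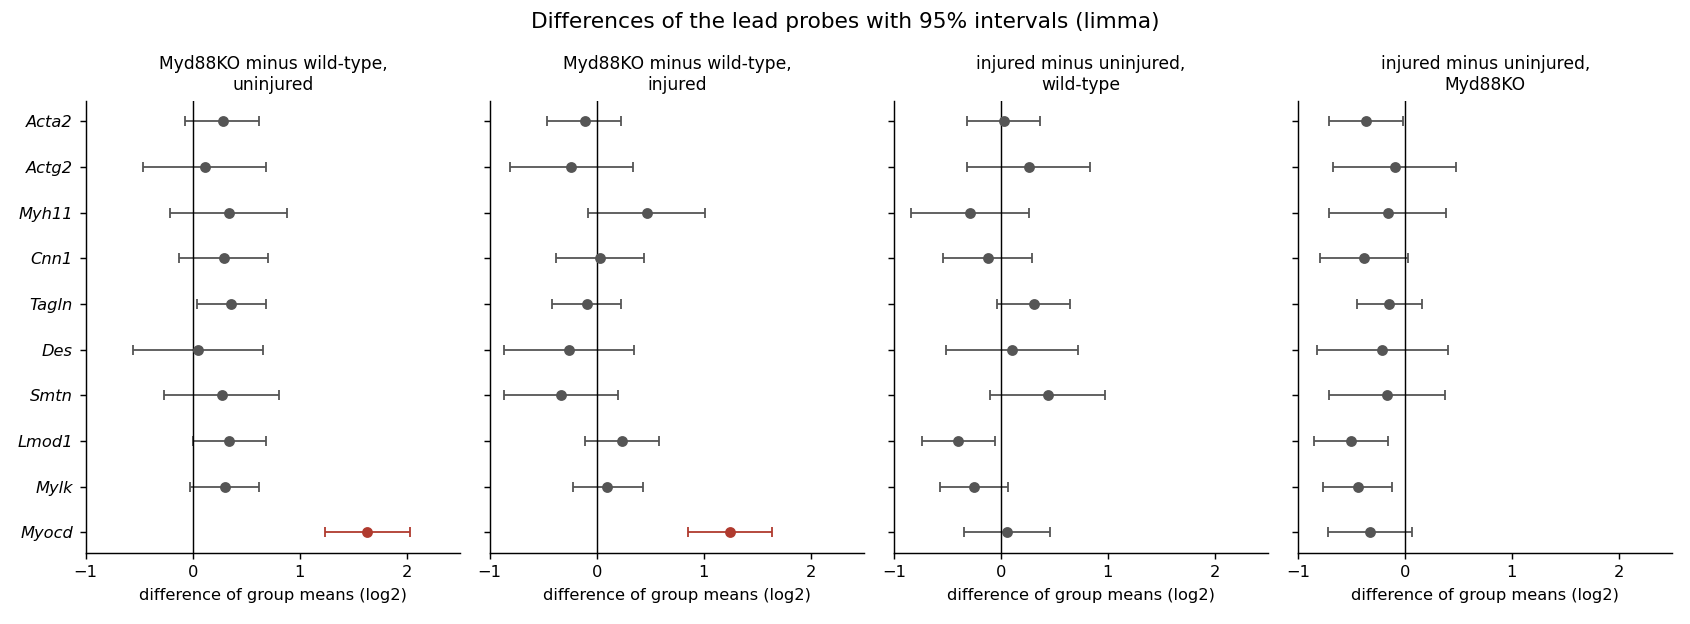
Difference of group means for the lead probe of each gene (x axes, log2) with its 95% interval from limma, in the 4 comparisons of 2 groups. Red marks an adjusted p under 0.01, which Myocd alone reached, in both comparisons of genotype, at 1.63 and 1.25.

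After injury the Myd88KO and wild-type levels of the contractile genes showed no common direction. Of the 16 probes 8 lay above 0 and 8 below, with a median of 0.01 against -0.03 over all tested probes. Apart from Myocd, the largest difference was that of Myh11, the smooth muscle myosin heavy chain, whose levels were 2.56, 3.31, 3.10, 3.40 and 2.41 in injured wild-type and 2.79, 3.68, 4.00, 3.28 and 3.36 in injured Myd88KO tracheas. The groups overlapped, and the difference of 0.47 (SE 0.26, 95% interval -0.08 to 1.01) did not pass (limma, adjusted p = 0.486). Smtn, which encodes the actin-associated protein smoothelin, differed by -0.33 (SE 0.26, adjusted p = 0.631). Without injured Myd88KO replicates 1 and 5, Myh11 differed by 0.69 (limma, adjusted p = 0.503) and Smtn by 0.03, and Actg2 turned from -0.24 to 0.19 and Cnn1 from 0.03 to -0.02. The other lead probes besides Myocd lay between -0.18 and 0.21 without these arrays.

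The next comparison asked what injury did in each genotype. In wild-type tracheas 0 of the 16 member probes were called by limma, against 5.26% of all tested probes, and 1, Lmod1, was lower at an unadjusted p of 0.05, as were 11.9% of all tested probes. The median difference was 0.05, against 0.00 over all tested probes. Lmod1 encodes leiomodin-1, which nucleates actin filaments in smooth muscle. Its levels were 3.17, 2.81, 2.83, 2.84 and 3.11 in uninjured and 2.66, 2.58, 2.41, 2.76 and 2.37 in injured wild-type tracheas. No injured array reached the uninjured ones, and the injured array was the lower on 5 of 5 slides. The difference of -0.40 (SE 0.16, 95% interval -0.74 to -0.05) nevertheless did not pass the test (limma, adjusted p = 0.123), and for 4.68% of all tested probes the injured arrays lay wholly below the uninjured ones.

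In Myd88KO tracheas 0 of the 16 were called by limma, against 0.376% of all tested probes. All 16 differences were below 0, from -0.50 for Lmod1 to -0.06 for the dimmer Tagln probe. Their median was -0.17, against -0.07 over all tested probes, and it was -0.02 without injured replicate 1, so that it rests largely on that array. Of the 10 lead probes, 10 lay below 0 on all arrays, 7 without injured replicate 1 and 7 without replicates 1 and 5. Without replicate 1, Actg2, Des and Smtn turned to 0.13, 0.05 and 0.11, and without both, Actg2, Myh11 and Smtn turned to 0.34, 0.07 and 0.19. At an unadjusted p of 0.05, 3 of the 16 were lower (Lmod1, the lead Mylk probe and the lead Acta2 probe), as were 12.2% of all tested probes.

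Lmod1 lay at 3.30, 3.31, 3.42, 3.07 and 3.39 in uninjured and at 2.61, 2.68, 2.49, 2.70 and 3.49 in injured Myd88KO tracheas. Injured replicates 1 to 4 were below every uninjured array, and replicate 5 was above all of them. The difference of -0.50 (SE 0.16, 95% interval -0.85 to -0.16) did not pass (limma, adjusted p = 0.095). Without injured replicate 5 it was -0.68 (adjusted p = 0.00261), without replicates 1 and 5 it was -0.67 (adjusted p = 0.00369), and with estimated array weights -0.60 (adjusted p = 0.00511), all of which passed. Over the 14 other settings, which include the omission of both replicates 1 and 5, the adjusted p ran from 0.00369 to 0.261.

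The lead Mylk probe lay at 4.61, 4.71, 4.84, 4.82 and 4.67 in uninjured and at 3.87, 4.37, 4.59, 4.22 and 4.39 in injured Myd88KO tracheas. These groups did not overlap, as was the case, with injured arrays the lower, for 2.3% of all tested probes. The difference was -0.44 (SE 0.15, 95% interval -0.77 to -0.12, limma, adjusted p = 0.119), and the dimmer Mylk probe differed by -0.07 (SE 0.17, adjusted p = 0.860). Without injured replicates 1 and 5 the lead probe differed by -0.34 (limma, adjusted p = 0.165).

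Acta2 was read by 4 tested probes. The lead probe, a mean of 10 spots, lay at 7.09, 7.18, 7.27, 7.07 and 6.91 in uninjured Myd88KO and at 6.24, 7.08, 6.76, 6.64 and 6.98 in injured Myd88KO tracheas. The groups overlapped at injured replicates 2 and 5. Its difference of -0.36 (SE 0.17, adjusted p = 0.235 by limma) stood beside -0.14, -0.08 and -0.32 for the other probes, and was -0.28 without injured replicates 1 and 5 (adjusted p = 0.276). In wild-type tracheas the lead probe differed by 0.03 with injury (95% interval -0.32 to 0.37).

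The remaining thin-filament and cytoskeletal members had no called difference with injury. Actg2, the enteric smooth muscle gamma-actin, differed by 0.26 with injury in wild-type and -0.09 in Myd88KO tracheas, and its SD within a group was 0.23 to 0.62. Cnn1 encodes calponin, an actin-binding inhibitor of the myosin ATPase, and differed by -0.12 and -0.38. Des encodes desmin, the intermediate filament protein of all muscle types, with differences of 0.10 and -0.21 and an SD of up to 0.71. For Smtn they were 0.44 and -0.17. None of these passed (limma, adjusted p from 0.298 to 0.889). In Myd88KO tracheas without injured replicates 1 and 5, Cnn1 differed by -0.43, Tagln by -0.17 and Des by -0.13.

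Whether the genotypes responded differently to injury was tested directly. No member probe was called by limma (smallest adjusted p = 0.486) and 0 had an unadjusted p under 0.05. Over all 26063 tested probes 0 were called as well, and 10.4% had an unadjusted p under 0.05. The differences ran from -0.60 for Smtn to 0.13 for Myh11, and 15 of the 16 lay below 0 (median -0.27, against -0.09 over all tested probes). With both injured Myd88KO replicates 1 and 5 left out the median was -0.09.

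Correlations between the members from mouse to mouse were mostly positive. After the group means were removed, Pearson's r between lead probes ran from -0.18 to 0.90 over the 45 pairs, with a median of 0.43, and 42 (93.3%) were above 0. Between the lead probes and the 25827 other tested probes with a value on every array, the median r was 0.02, 51.8% were above 0, and 13.4% reached the median of the members. All pairs come from the same arrays and share their scaling. By permutation of arrays within groups (100000 permutations, two-sided, Benjamini-Hochberg over the 45 pairs), 17 pairs had an adjusted p under 0.05. This ignores the scan day, and with permutation kept within group and scan day 11 pairs did. No permutation within slides is possible, since a slide holds 1 array of a group.

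The strongest pair was Cnn1 with Tagln, at r = 0.90 and rho = 0.89 over 18 arrays (permutation p = 9e-05, adjusted p = 0.00135), and r was 0.83 without the 2 arrays farthest out in Cnn1. Within the first scan day r was 0.89 and within the second it was 0.98, and the adjusted p was 0.0348 by permutation within scan days. The second scan day held just replicates 1 and 5 of each group, so that every r within it rests on few arrays. Cnn1 with Lmod1 reached r = 0.70 and rho = 0.82 over 20 arrays (permutation p = 4e-05, adjusted p = 0.00135, r = 0.77 without 2 arrays), with 0.72 and 0.74 within scan days (adjusted permutation p = 0.0491 there). Actg2 with Myh11 had r = 0.84 and rho = 0.82 (permutation p = 8e-05, adjusted p = 0.00135, r = 0.78 without 2 arrays), with 0.52 and 0.81 within scan days (adjusted permutation p = 0.0491 there), and r was 0.52 once slide means were removed. Myocd covaried most with Tagln, at r = 0.66 and rho = 0.68 over 18 arrays (permutation p = 0.00648, adjusted p = 0.0287, r = 0.53 without 2 arrays), with 0.67 and 0.85 within scan days (adjusted permutation p = 0.0491 there).

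Relative to the group means, Myh11, Actg2 and Smtn differed by -0.68, -0.66 and -0.52 between the second and the first scan day, whereas the other members differed by -0.15 to 0.19. Each of the 2 scan days held whole slides and thus all groups in equal number. The correlation of Lmod1 with these 3 genes was -0.18, -0.16 and 0.00. Once slide means were removed as well, all 45 correlations were above 0, from 0.20 to 0.92 with a median of 0.55, against a median of 0.06 and 55.3% above 0 for the lead probes with other tested probes. The lowest was Myh11 with Smtn, which fell from 0.65 to 0.20. Those of Lmod1 with the same 3 genes became 0.47, 0.42 and 0.37.

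**Figure D5:**
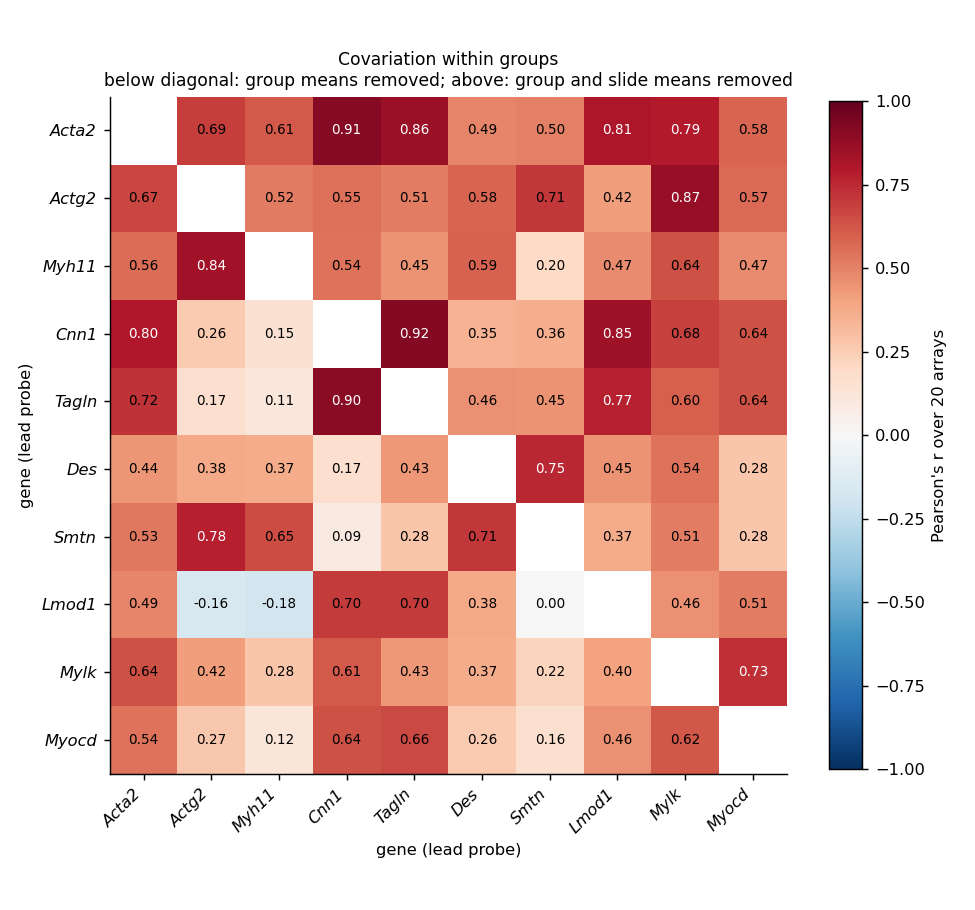
Pearson's r between the lead probes of the 10 genes (both axes) over 20 arrays, 18 for pairs with Tagln, as colour and number. Below the diagonal group means were removed and values run from -0.18 to 0.90, and above it group and slide means were removed and all values lie between 0.20 and 0.92.

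Single arrays stood out across the set. Injured Myd88KO replicate 1 was the lowest of its group for 9 of the 10 lead probes, and injured wild-type replicate 5 likewise for 9 of 10. Averaged over the members they deviated from their group means by -0.54 and -0.38 on the log2 scale, more than any other array. The mean deviation of the members had r = 0.03 with the intensity of the array and r = -0.26 with its share of spots well above background (20 arrays, group means removed, given as a description).

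The probes most like the members were found by their correlation with the mean deviation of the 10 lead probes over the 20 arrays, after group means were removed. The 10 highest were Zfp346, Ncdn, Wdtc1, Scube1, Fxyd6, Bub3, Zyg11bl, 1810058I24Rik, AB182283 and Prnpip1, with r from 0.87 to 0.92, and 0 of them are in the lists below. Without both outlying arrays named above, r was 0.77 to 0.88. These are the extremes of all tested probes and carry no test.

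Further genes of the smooth muscle apparatus were read from a list of 22, of which 21 were tested with 45 probes. In wild-type tracheas 3 of the 45 probes, of 2 genes, were called with injury, a share near the 5.26% of all tested probes. Itga8, the integrin alpha-8 subunit, fell from 1.89 ± 0.23 to 0.77 ± 0.30 (SD, n = 5 each; -1.12, SE 0.22, limma, adjusted p = 0.0027), and its other probe fell by 1.18 (SE 0.21, adjusted p = 0.00187). Pdlim7, a PDZ and LIM domain protein of actin filaments, rose by 1.30 with 1 probe (SE 0.28, adjusted p = 0.00474), while its brighter probe gave 1.07 and missed the threshold (adjusted p = 0.0108) and both others gave -0.36 and -0.44. In Myd88KO tracheas 0 of the 45 probes were called, against 0.376% of all tested probes. Itga8 lay there at 1.87 ± 0.15 before and 1.43 ± 0.56 after injury (-0.44, limma, adjusted p = 0.279). The difference between the injury responses was called for 0 of the 45 probes. The brightest uncalled genes were Myl6 and Tpm1, a myosin light chain and a tropomyosin, at 0.17 and -0.54 in wild-type and -0.13 and -0.44 in Myd88KO tracheas. The median over the 45 probes was -0.12 in wild-type and -0.21 in Myd88KO tracheas, and 0 were called between genotypes.

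Regulators of the contractile genes were taken from a list of 13, of which 10 were tested with 18 probes. Mrtfa, a relative of myocardin that also binds serum response factor, rose by 0.72 with injury in wild-type tracheas (SE 0.14, limma, adjusted p = 0.00235), and it was the 1 gene of this list called in any comparison. Srf itself, serum response factor, differed by 0.13 between the uninjured genotypes (limma, adjusted p = 1). Klf4 and Mef2c, the brightest uncalled genes of the list, gave -0.41 and 0.07. Between the uninjured genotypes, where the lead Myocd probe differed, 0 of the 18 probes were called and their median difference was 0.13.

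Receptors and ion channels of airway smooth muscle were represented by 19 genes, 15 of them tested with 28 probes. Itpr1, the inositol trisphosphate receptor that releases stored calcium, fell by 0.73 in injured wild-type tracheas (SE 0.15, limma, adjusted p = 0.00396), from 2.86 ± 0.13 to 2.12 ± 0.12 (SD, n = 5 each). In Myd88KO tracheas it differed by -0.38 (adjusted p = 0.169), and the difference between its injury responses was not called. The brightest uncalled genes were Ednra, the endothelin A receptor, and Atp2a2, the calcium pump of the sarcoplasmic reticulum, with 0.54 and -0.30 in wild-type tracheas. No other probe of the list was called in any comparison.

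Relatives of the members from outside the set were tested for 11 genes with 14 probes. With injury in wild-type tracheas, Vim, the intermediate filament protein vimentin, rose by 1.27 (SE 0.23, limma, adjusted p = 0.00166), and Myh9, the non-muscle myosin heavy chain, rose by 0.67 (SE 0.14, adjusted p = 0.00507). In Myd88KO tracheas 0 of the 14 were called, against 0.376% of all tested probes. The difference between the injury responses was called for 0 of the 14 as well. Of 2 Actb probes, for beta-actin, the brighter was lower in injured Myd88KO tracheas (-1.54, SE 0.23, limma, adjusted p = 0.000926) and the dimmer was lower in uninjured ones (-0.73, SE 0.13, adjusted p = 0.00602). Tagln2 and Lmod3, the brightest uncalled genes of the list, differed by 0.88 and -0.75 with injury in wild-type tracheas (limma, adjusted p = 0.0353 and 0.323). Lmod3 is a leiomodin of striated muscle and not a non-muscle form.

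Markers of other cells that make contractile proteins were read beside the members. Of 7 pericyte and vascular wall genes (13 probes) and 6 tested myoepithelial and basal cell genes (10 probes), 0 were called in any comparison. The brightest were Pdgfrb and Kcnj8 of the first list, with 0.30 and 0.62 in injured wild-type tracheas, and the keratins Krt5 and Krt17 of the second, with 0.34 and 0.23. The mean level of the pericyte list was 2.00 to 2.22 in uninjured wild-type, 2.20 to 2.33 in uninjured Myd88KO, 2.07 to 2.62 in injured wild-type and 1.82 to 2.40 in injured Myd88KO tracheas. That of the myoepithelial list was 3.14 to 4.31, 3.19 to 3.71, 3.42 to 4.27 and 3.12 to 4.48. Of 9 fibroblast and myofibroblast genes (16 probes) 1, Thy1, was called, 1.08 higher in injured wild-type tracheas (SE 0.22, limma, adjusted p = 0.00409), and the brightest uncalled genes Dcn and Col1a2 gave -0.25 and 0.93. Of 10 myeloid genes (15 probes) 5 were called higher there, led by Csf3r, Cd68, Itgam and Adgre1 (4.05, 3.27, 2.66 and 2.03). Of all tested probes 5.26% were called with injury in wild-type tracheas, in either direction. The mean level of the myeloid list was -0.53 to 0.83 in uninjured wild-type, 1.57 to 3.51 in injured wild-type and -1.55 to -0.43 in uninjured Myd88KO tracheas. In injured Myd88KO replicates 1 to 5 it was -0.30, 1.92, -0.56, 2.24 and -1.40, so that replicate 3 too lay within the range of the uninjured tracheas. Between the injured genotypes, with all arrays kept, the median difference was -1.30 over 15 myeloid and -0.69 over 16 fibroblast probes. Over all tested probes it was -0.03. Of these myeloid and fibroblast probes 0 were called by limma, against 0.38% of all tested probes. Of the luminal epithelium genes 2, the secretory proteins Scgb1a1 and Scgb3a2, were called lower with injury in wild-type tracheas (-7.91 and -5.77) and 1, Scgb1a1, in Myd88KO tracheas (-6.24). Endothelial, cartilage, adipocyte and thyroid markers gave 0 calls in any comparison by limma. The difference between the injury responses was called for no probe of any list, as for 0 of all tested probes. The part of these cells in the differences of the members was not tested.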

How the data were processed

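Whole-trachea RNA of 20 mice was hybridized to one-colour Agilent arrays, and the authors deposited each array's Feature Extraction (9.5.1.1) output and a value table, both of background-subtracted intensity that had not been scaled between arrays. Control spots and outlier spots were left out, spots of 1 probe were averaged, and the 75th percentile of the array was subtracted from each log2 intensity. Of 41174 probes, the 26063 that were well above background on at least 10 arrays were fitted together in R 4.3.3 with limma 3.58.1 (lmFit and eBayes, group means, 5 contrasts, Benjamini-Hochberg within a contrast), and an adjusted p under 0.01 was called. P-values measure the spread between these mice. Interval and SE come from the fit. List means use the brightest tested probe of each gene, with outlier values kept where a value would be missing. The limma step was tested on simulated data. Groups came from the sample titles. A one-way parametric test, as the study used, was an alternative (the methods' one-way test).

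The genes named are all member probes, up to 4 called and 2 of the brightest uncalled genes of each further list, and the 10 probes most like the members. All 8 cardiac genes and the neighbours of Myocd were named beyond this rule, after their values were seen, and the lists given by counts alone name none. The members, the lists and the tests were chosen with earlier results of these data known. Positions are those of the files, whose build is not stated.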

Additional observations from a re-analysis of the deposited data

Results flagged for a closer look

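In the 38 groups of 5 arrays that had all values of a lead probe, 4 held an array whose gap to its nearest neighbour took up an unusually large part of the range of the group (Dixon's ratio above 0.71). Chance alone gives about 1 such group in 20. Acta2 was high in uninjured wild-type replicate 1, at 7.11 against 6.78 in the next array (ratio 0.890). Des was low in the same array, at 3.36 (ratio 0.791), so that it stood out upward for 1 member and downward for another. Lmod1 was high in injured Myd88KO replicate 5, at 3.49 (ratio 0.786), an array whose mean of luminal epithelium markers lay within the uninjured range. Cnn1 was low in injured wild-type replicate 5, at 5.19 (ratio 0.719), the array that was lowest of its group for 9 of 10 lead probes. Myocd had no such array in any group.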

How the results depend on the processing

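The calls of member probes were recomputed under 14 other settings and without each array in turn. Of these counts 162 were unchanged and 6 moved. The count for injury in Myd88KO tracheas rose from 0 to 1 (Lmod1) with array weights and, in an alternative chosen after seeing the data, with injured Myd88KO replicates 1 and 5 left out, and ranged from 0 to 1 without single arrays. The count for uninjured genotypes fell from 1 to 0 with the methods' one-way test on 2 groups (Myocd adjusted p = 0.015). That for injured genotypes fell to 0 with the same test (0.0491) and with limma on 2 groups (0.0199).

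No called difference reversed. The sign turned for some uncalled differences, of up to -0.35 (Actg2, difference of the responses). With injury in wild-type tracheas, Acta2 gave -0.05 (quantile normalization) and -0.03 (array weights), and Myocd -0.04 (array weights). With injury in Myd88KO tracheas, Actg2 gave 0.06 (array weights), and without injured replicates 1 and 5, Actg2 gave 0.34, Myh11 0.07 and Smtn 0.19. Between injured genotypes, Acta2 gave 0.06 and Tagln 0.09 (quantile), Actg2 0.13 (array weights), and without both replicates Actg2 gave 0.19, Cnn1 -0.02 and Smtn 0.03. For the difference of the responses, Lmod1 gave 0.02 (quantile) and Actg2 0.08 (without both replicates).

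Without single arrays, ranges that crossed 0 were, for injury in wild-type tracheas, -0.05 to 0.14 (Acta2), -0.21 to 0.08 (Cnn1), -0.04 to 0.31 (Des) and -0.06 to 0.17 (Myocd). For injury in Myd88KO tracheas they were -0.23 to 0.13 (Actg2), -0.41 to 0.05 (Des) and -0.34 to 0.11 (Smtn). For injured genotypes they were -0.23 to 0.01 (Acta2) and -0.17 to 0.11 (Cnn1), for uninjured genotypes -0.09 to 0.13 (Des), and for the difference of the responses -0.02 to 0.28 (Myh11). The cause was not tested. Without single arrays Myocd gave 1.53 to 1.72 before and 1.14 to 1.36 after injury and stayed called.

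The replicate number as a block gave 0, 0, 1, 1 and 0 called member probes, as without it. Same-numbered arrays, which share a slide, correlated by -0.26 to 0.48 after removal of group means (median 0.24, over 0.1 in 23 of 30 pairs). Differently numbered ones correlated by -0.51 to 0.54 (median -0.08, 35 of 120). The median was thus higher on a shared slide, but the main fit, with its SE and intervals, leaves the slide out. Some unadjusted p-values differ with the slide as a block. For Myh11 between the injured genotypes the limma p was 0.0912 without the block and 0.00901 with it (block adjusted p = 0.174). For Smtn with injury in wild-type tracheas these were 0.107 and 0.0296 (block adjusted p = 0.11). For the difference of its responses they were 0.113 and 0.032 (block adjusted p = 0.324). For the lead Tagln probe between the uninjured genotypes p rose, from 0.0311 to 0.0696. With 5 mice per group, an SE of 0.15 to 0.29 leaves small changes of these genes undetectable.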
